A study of Mus musculus with 9 samples.

Results

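The tibialis anterior of control mice was described from the 3 arrays titled as control muscle, out of 9 arrays in the series. The 3 were taken by their titles, with earlier results of these data known, and all 22206 probe sets measured on them were ranked by mean log2 value. The mice were of strain C57/BL6, 2 months old, with the genotype MCU+/+/MCUb+/+. The other 6 arrays came from MCU-/-/MCUb+/+ and MCU+/+/MCUb-/- mice, 3 each, which lack one or the other of a pair of related proteins of the mitochondrial calcium uniporter. Those arrays served here only to show how much arrays of 1 genotype differ from each other, and no knockout level was set against a control level. The labels give total RNA of whole muscle, flash-frozen and hybridised to Clariom S mouse arrays. They do not say that the 3 control samples came from separate animals, so the spread between them may be in part technical. The labels used here give no sex, litter or hour of harvest.

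The tibialis anterior lifts the foot and is a fast muscle, in which most fibres carry fast myosins. A fast fibre reaches its force through quick release and re-uptake of calcium by the sarcoplasmic reticulum, and fuels short bursts from glycogen and phosphocreatine. Slow fibres use other genes for the same parts of the contractile machine, so the pair of isoforms of each part tells which fibres a muscle holds.

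Each array carries 23 background sets, and a signal over their 95th percentile on the same array was called above background. The limits were 5.90, 5.88 and 5.92 on control replicates 1, 2 and 3, and values below are given in that order. On all 3 arrays 9180 probe sets (41.3% of 22206) were above background, and 8271 of them carried a gene symbol. The array medians were 5.58, 5.51 and 5.60, below the limits. Genes of tissues that should be silent in muscle gave a check of the limit. Of 1091 olfactory receptor genes 13 were above background on all 3 arrays, and of 319 vomeronasal receptor genes 6. None of 16 liver genes, 12 gut genes or 8 heart genes was. Of 14 brain genes 1 was (Aqp4, mean 8.16), and of 16 spermatogenesis genes 1 (Hspa1l, mean 8.46). Another class of control features, the 5222 whose names hold "neg", differed from the background sets: 39.3%, 42.2% and 39.6% of them exceeded the same limits. A low level just above the limit is therefore weak evidence that a gene is expressed. A stricter limit, the 95th percentile of those features (9.67, 9.77 and 9.56), was chosen after seeing the data. It was passed on all 3 arrays by 3239 probe sets. None of the receptor, liver, gut, heart, brain or spermatogenesis genes passed it. List counts below that it lowered by more than 1.5 times are given beside the first count.

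A rank here describes signal on this array. Probe sets differ in how well they bind, so ranks do not order genes by molecules per fibre. The 100th probe set had a mean of 17.43, the 1000th (4.50% of all) 13.20, and the median over all was 5.54.

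The label of a fast muscle was checked first with its marker, Actn3, which encodes the alpha-actinin that anchors thin filaments at the Z-disc of fast fibres. Actn3 (probe set TC1900000939.mm.2, chromosome 19) read 18.34, 18.61 and 18.27, a mean of 18.41 ± 0.18 (SD, n = 3) and rank 28. It was high on all 3 arrays. All 12 fast fibre markers were above background on all 3 arrays, and all 12 stood among the first 1000.

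The highest mean of all belonged to Atp2a1, the calcium pump of the fast sarcoplasmic reticulum, at 19.73, 19.92 and 19.45 (19.70 ± 0.24, SD, n = 3). Acta1, skeletal muscle actin of the thin filament, followed at 19.70, 19.75 and 19.45 (19.63 ± 0.16). Myh4, the heavy chain of the fastest myosin, type IIb, read 19.50, 19.51 and 19.21 and ranked 5. In each of these 3 genes replicate 3 was the lowest, by less than 0.50. Over all probe sets above background replicate 3 was the lowest in 38.1%. The highest value on any control array was the 19.92 of Atp2a1.

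The promoters of Acta1, Myh4 and Pvalb are shown, chosen after their letters were seen, because they belong to the thin filament, the thick filament and the calcium buffer of the fibres and hold matches to motifs of muscle factors. Atp2a1, first in the ranking, is shown beside them and holds none. Each is the RefSeq window of GRCm38.p6 from 250 bases before to 50 after an annotated gene start, read 5′ to 3′ on the gene's strand. Atp2a1 lies at chr7:126463024-126463323 on the minus strand, Acta1 at chr8:123894726-123895025 on the minus strand, Myh4 at chr11:67237562-67237861 on the plus strand, and the first of the Pvalb starts at chr15:78206351-78206650 on the minus strand. Capitals mark matches on either strand to TATAAA, to the CArG motif, which is bound by serum response factor, and to the MEF2 motif, which is bound by the MEF2 family.
Atp2a1: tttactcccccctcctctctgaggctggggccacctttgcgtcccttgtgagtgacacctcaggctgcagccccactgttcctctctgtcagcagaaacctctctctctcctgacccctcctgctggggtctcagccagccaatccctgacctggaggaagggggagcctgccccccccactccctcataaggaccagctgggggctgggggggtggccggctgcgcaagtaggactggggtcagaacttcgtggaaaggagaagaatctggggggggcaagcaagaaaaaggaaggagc
Acta1: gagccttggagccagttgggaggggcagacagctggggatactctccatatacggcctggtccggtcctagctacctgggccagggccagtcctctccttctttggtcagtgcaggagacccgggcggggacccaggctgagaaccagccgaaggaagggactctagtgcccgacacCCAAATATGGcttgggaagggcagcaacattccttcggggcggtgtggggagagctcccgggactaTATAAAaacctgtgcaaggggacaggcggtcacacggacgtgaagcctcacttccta
Myh4: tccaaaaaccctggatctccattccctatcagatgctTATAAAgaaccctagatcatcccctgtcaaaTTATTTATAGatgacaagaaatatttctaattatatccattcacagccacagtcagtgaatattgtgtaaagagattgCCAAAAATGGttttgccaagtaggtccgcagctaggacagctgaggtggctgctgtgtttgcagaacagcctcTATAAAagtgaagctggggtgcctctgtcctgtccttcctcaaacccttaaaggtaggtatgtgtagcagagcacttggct
Pvalb: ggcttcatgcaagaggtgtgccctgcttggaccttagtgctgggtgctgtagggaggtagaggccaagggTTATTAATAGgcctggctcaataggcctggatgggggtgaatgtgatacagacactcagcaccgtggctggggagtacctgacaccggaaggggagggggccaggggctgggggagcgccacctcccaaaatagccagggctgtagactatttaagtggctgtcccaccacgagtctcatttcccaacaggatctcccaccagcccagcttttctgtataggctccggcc

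In these letters Acta1 held 1 CArG match and 1 TATAAA, Myh4 1 CArG match, 1 MEF2 match and 3 TATAAA, and Pvalb 1 MEF2 match. No match to these 3 motifs was found in the windows of Atp2a1, Pygm, Tnnc2, Ckm, Mylpf and Nr4a3 or of the other Pvalb start, and Myl1 held 1 TATAAA alone. RefSeq's table held promoters for 23 of the 34 genes on the lists of fast and of shared sarcomere genes, in 25 windows of 300 bases. Of these 25 windows 5 (20.0%) held a CArG match and 5 (20.0%) a MEF2 match, against 1.6% and 1.9% of all 32851 windows in the table. An E-box (CANNTG) was in 84.0% of the 25 windows and in 72.3% of all. The respiratory chain genes, which fill much of the same top range, had 0 CArG and 0 MEF2 matches in 74 windows of 69 genes. The CArG motif was searched as CC, 6 letters of A or T, then GG, and the MEF2 motif as CTA, 4 letters of A or T, then TAG or TAA, both strands in each case. No overlap between motifs was removed. A match describes these letters and is not a binding site.

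Over the 200 named genes of highest mean, 165 had promoters, in 217 windows. CArG and MEF2 matches were in 3.2% and 4.6% of these. TATAAA was in 12.0% of them against 13.6% of all windows, CCAAT in 38.2% against 37.4%, and GGGCGG in 48.4% against 35.7%. The E-box was in 66.4% of them against 72.3%. Among all genes above background GGGCGG was more frequent still, in 61.5% of 8565 windows, against 34.0% of the windows of genes above background on no array. TATAAA ran the other way, in 7.6% of windows of genes above background and 16.9% of those of genes above background on none. So did the E-box, in 63.5% and 73.8%.

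All 18 genes of the fast fibre list were above background on all 3 arrays and 17 were among the first 1000, with a median level of 18.15. In the thick filament, the fast light chain Myl1 read 19.06, 19.00 and 18.88, and the phosphorylatable fast light chain Mylpf 17.64, 17.94 and 17.10. Myh1, the heavy chain of type IIx fibres, read 17.71, 17.86 and 17.42 and ranked 74. Mybpc2, the fast myosin-binding protein C, read 17.48, 17.66 and 17.11. In all 4 replicate 3 was the lowest array. In the thin filament the fast troponin genes were all within the first 102 probe sets. Tnnc2, the calcium-binding subunit, read 18.92, 18.99 and 18.78. Tnni2, the inhibitory subunit, read 18.21, 18.34 and 18.06, and Tnnt3, which ties troponin to tropomyosin, 17.35, 17.71 and 17.21. Casq1, which stores calcium in the reticulum, read 18.15, 18.42 and 17.74, and Pvalb, parvalbumin, the soluble buffer that speeds relaxation, 18.66, 18.79 and 18.48. The exception in the list was Fbp2, muscle fructose bisphosphatase, at 11.09, 11.55 and 10.76 and rank 2252.

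The slow and type IIa list was spread over the whole range. Of 19 genes 16 were above background on all 3 arrays, 10 passed the stricter limit and 7 were among the first 1000, with a median level of 10.64. Myh7, the slow heavy chain, read 6.81, 7.10 and 6.65, about 1 log2 above the background limit, and ranked 7962. Tnni1, slow troponin I, read 5.04, 5.82 and 5.55 and was above background on no array. Tnnt1 read 7.22, 7.39 and 6.88, and Tnnc1 7.26, 7.73 and 7.53. The slow troponins and Myh7 were thus at or below 7.73 on every control array, while their fast counterparts were within the first 102. Myh2, the heavy chain of type IIa fibres, was far brighter at 16.63, 16.50 and 16.01 (16.38 ± 0.33, SD, n = 3) and ranked 200. Atp2a2, the slow calcium pump, read 11.01, 10.62 and 10.30, and Casq2 11.43, 11.63 and 11.68. Myl2, the slow regulatory light chain, read 9.61, 9.97 and 10.93. Other members of the list were bright. Myl3, a slow light chain, read 16.63, 16.41 and 16.84 and ranked 174. Mb, myoglobin, the oxygen store, ranked 12, Mybpc1 ranked 65 and Actn2, the Z-disc actinin of all fibres, ranked 183.

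**Figure D1:**
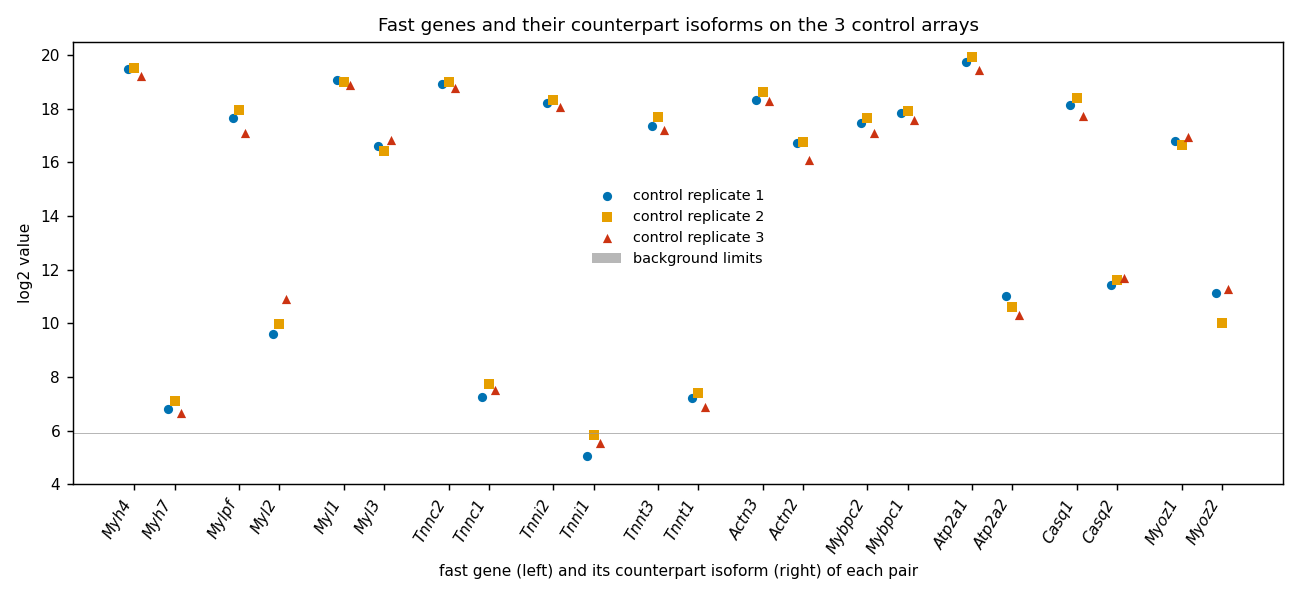
Log2 values of 11 fast genes (left of each pair) and their counterpart isoforms (right) on the 3 control arrays, with 1 point per array and the background limits as a grey line. The fast genes lie between 16.64 and 19.92, whereas Myh7, Tnnc1, Tnni1 and Tnnt1 lie below 7.80, and Myl3, Actn2 and Mybpc1 lie between 16.08 and 17.93.

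Myh8, the perinatal myosin heavy chain, read 19.63, 19.79 and 19.20 and ranked 3. Myosin heavy chain genes are close in sequence, and whether the probes of Myh8 bind RNA of the adult fast myosins was not tested. The other genes of early muscle were lower. Myl4, the embryonic light chain, read 12.09, 12.52 and 11.56, and Actc1, cardiac actin, 11.70, 11.32 and 10.93. Myh3, the embryonic heavy chain, was above background on no array (4.12, 4.04 and 4.24). Heart genes were dark, with Myh6, Nppa, Tnni3 and Myl7 among the 8 that were above background on no array.

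The shared parts of the sarcomere were bright. All 16 genes were above background on all 3 arrays and 13 were among the first 1000, with a median SD of 0.171. Probe sets of like level, with means of 14 to 16 and 16 to 18, had median SDs of 0.176 and 0.163. Tpm2, a tropomyosin, read 18.32, 18.45 and 18.21. Neb, nebulin, the ruler of the thin filament, read 18.42, 18.33 and 18.13, and Ttn, titin, which spans the sarcomere from Z-disc to M-line, 17.34, 17.49 and 17.02. Myot, myotilin of the Z-disc, was among the most even, at 17.24, 17.27 and 17.34. Myom2, an M-line protein, stood out in the list with 13.71, 14.46 and 13.03, a range above 1 log2.

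Calcium release formed a bright group. Of 29 measured genes of excitation-contraction coupling and membrane channels, 26 were above background on all 3 arrays and 18 among the first 1000. Cacna1s, the voltage sensor in the transverse tubule, read 15.61, 15.89 and 15.68. Ryr1, the release channel it opens, read 14.61, 14.55 and 14.31. Hrc, a calcium-binding protein of the reticulum, ranked 69, and Asph, whose locus also encodes junctin of the release complex, ranked 48. Jph1 and Jph2, junctophilins that hold the tubule against the reticulum, ranked 648 and 712. Store-operated entry was dim, with Stim1, the store sensor, at 7.46, 7.45 and 7.72, and Orai1, its channel, above background on no array. Clcn1, the chloride channel that keeps the resting membrane stable, read 13.32, 13.53 and 13.65.

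The uniporter, the subject of the series, carries calcium into mitochondria. Of 10 genes for it and its neighbours 9 were above background on all 3 control arrays, with a median level of 10.76. Mcu, the pore, read 10.38, 10.96 and 10.46 (10.60 ± 0.31, SD, n = 3). Smdt1, the EMRE subunit that links the pore to its gatekeepers, was bright at 17.43, 17.31 and 17.62 and ranked 97. The gatekeeper Micu2 read 8.31, 8.71 and 7.04, and Micu3 7.80, 7.35 and 8.01. Micu2 was the only one of the 9 whose arrays spanned 1 log2 or more. Slc8b1, the sodium-calcium exchanger that lets calcium out again, was at the limit, with 6.06, 5.90 and 5.72.

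The respiratory chain took more of the first 100 places than any other list. Of 85 genes 81 were above background on all 3 arrays, 69 were among the first 1000 and 29 among the first 100, with a median level of 16.66. Cox7c, a small subunit of cytochrome c oxidase, ranked 8 at 19.24, 19.43 and 19.12. Atp5a1 and Atp5b, the alpha and beta subunits of the catalytic head of ATP synthase, ranked 16 and 17. Uqcrh, the hinge protein of complex III, read 18.48, 18.53 and 19.18, with replicate 3 the highest. By complex, 32 of 37 genes of complex I, 8 of 9 of complex III, 11 of 18 of complex IV and 16 of 17 of ATP synthase were among the first 1000. In complex II, Sdhb, the iron-sulfur subunit, read 16.96, 17.03 and 17.10 and Sdha, the flavoprotein, 14.53, 14.12 and 14.35, while Sdhc, a membrane anchor, was at 8.52, 8.70 and 8.74. Tissue isoforms of complex IV differed in rank. The muscle forms Cox7a1, Cox8b and Cox6a2 ranked 61, 68 and 278, and their widely expressed counterparts Cox7a2, Cox8a and Cox6a1 ranked 172, 1816 and 1652. Cox8c, Cox7b2 and Cox6b2, known from testis, and Ndufa4l2 were not above background on all 3 arrays.

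Other mitochondrial genes stood in the same range. Slc25a4, the muscle carrier that exchanges ADP for ATP, ranked 9 at 19.25, 19.43 and 19.10. Micos10, a part of the cristae junction, closed the 30 named genes of highest mean at 18.29 ± 0.05 (SD, n = 3), next to 18.27 for the named gene after it. In the citrate cycle and its entry 22 of 26 genes were above background on all 3 arrays. Ogdh, of the 2-oxoglutarate dehydrogenase complex, ranked 51 and Fh1, fumarase, ranked 100, while Cs, citrate synthase, read 15.53, 15.48 and 15.44. All 23 genes of fatty acid oxidation were above background on all 3 arrays, with a median level of 12.96. Fabp3, the muscle fatty acid binding protein, ranked 94, and Cpt1b, the muscle gate of fatty acid entry into mitochondria, read 13.88, 13.79 and 14.14, where Cpt1a, the liver form, read 8.39, 7.95 and 7.34.

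Probe sets without a symbol made up 20 of the first 100, and 7 of those had identifiers that begin TC0M. There were 9 such identifiers in all. Their means ran from 15.61 to 19.49 with a median of 18.24, all above background. In 19506 of 19508 probe sets with a RefSeq chromosome, the part of the identifier after TC matched that chromosome, but the TC0M probe sets have no symbol in the tables used here and their genes were not named.

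Among glycogen and glycolysis genes the muscle forms ranked near the top, while the forms of other organs were dim or at background. Of 37 genes 29 were above background on all 3 arrays and 18 among the first 1000. Pygm, the muscle phosphorylase that frees glucose units from glycogen, ranked 7 at 19.32, 19.50 and 19.04. Its liver and brain forms Pygl and Pygb were above background on no array. Pfkm, the muscle subunit of the committed enzyme of glycolysis, read 17.37, 17.23 and 17.45, while the liver subunit Pfkl had a mean of 6.52 ± 0.47 (SD, n = 3). Aldoa, muscle aldolase, ranked 24 and Aldoc was above background on no array. Eno3 ranked 324 while the neuronal enolase Eno2 was dark, and Pgam2 ranked 45 while Pgam1 read 6.85, 6.38 and 7.03. Hk2, the insulin-regulated hexokinase, ranked 202 and Hk1 was above background on no array. Ldha, which favours lactate, read 14.39, 15.11 and 13.57, a range above 1 log2. Ldhb, the form of oxidative tissue, read 6.61, 6.69 and 7.87, so the replicate with the lowest Ldha had the highest Ldhb. Slc2a4, the insulin-regulated glucose carrier, read 12.44, 12.30 and 12.36. Of the phosphate buffers, Ak1, adenylate kinase, ranked 50, and Ampd1, the muscle AMP deaminase, ranked 84. Ckm, muscle creatine kinase, read 15.91, 16.38 and 15.84, and Ckmt2, its mitochondrial partner, 15.87, 16.07 and 15.82. Their brain and other mitochondrial counterparts Ckb and Ckmt1 were above background on no array.

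**Figure D2:**
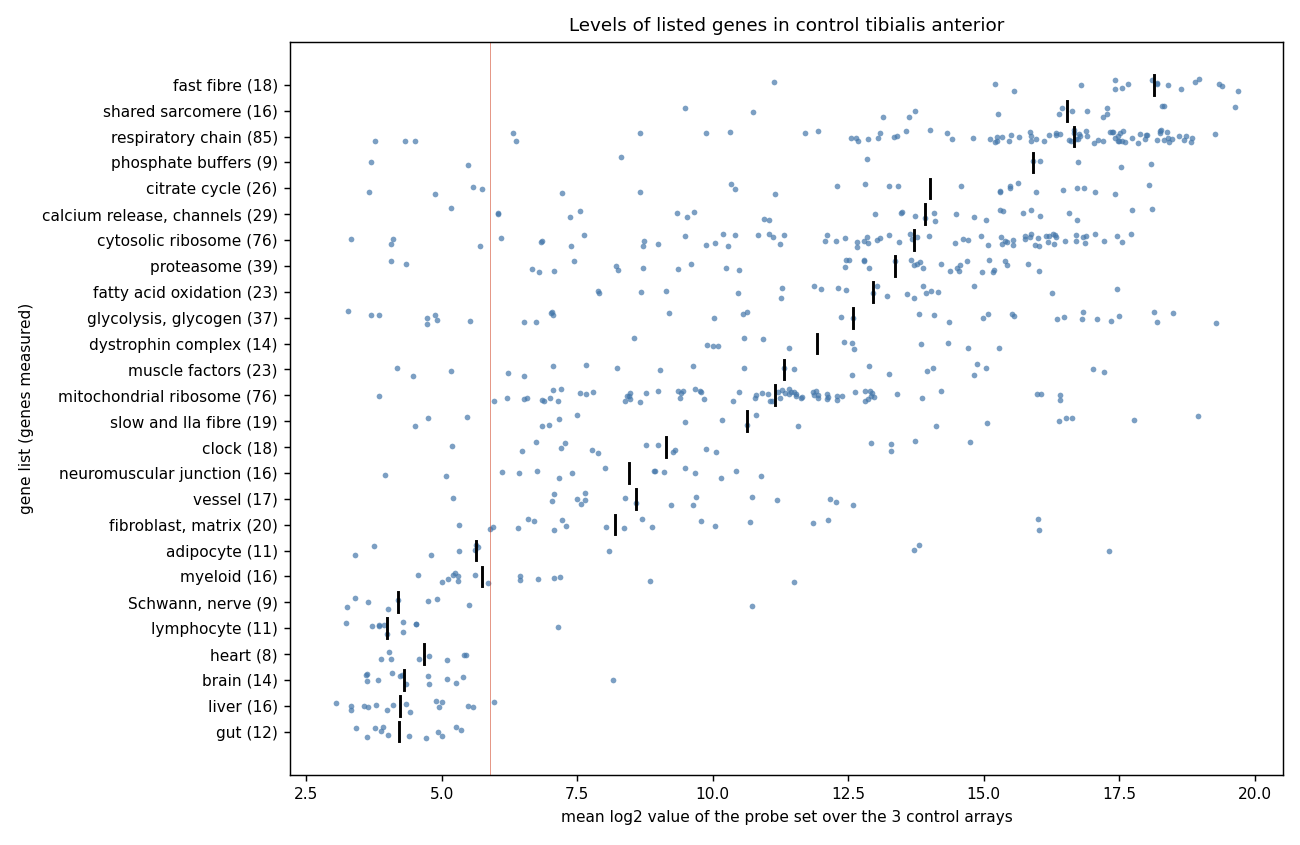
Mean log2 value over the 3 control arrays (horizontal) of each gene on 26 lists (vertical, genes measured in brackets), with a black bar at each list's median and the background limits in red. Medians fall from 18.15 for fast fibre genes and 16.66 for the respiratory chain to values under the limits for lymphocyte, heart, brain, liver and gut genes.

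Regulators of muscle identity were led by factors of mature fibres. Mef2c, which drives muscle genes, read 17.35, 17.11 and 17.21, and Sox6, which represses slow fibre genes, 14.85, 14.82 and 14.94. Ppargc1a, a coactivator of mitochondrial genes, read 14.96, 15.17 and 14.99. Tbx15, a factor of glycolytic fibres, read 14.00, 14.20 and 13.67. Of the 4 myogenic regulators, Myf6, the form of adult fibres, read 12.46, 12.84 and 12.42. Myog and Myod1 were just above the limit at 6.54, 6.49 and 6.55 and at 6.19, 6.42 and 6.08, and Myf5 was above background on no array. Across the list 20 of 23 genes were above background on all 3 arrays, 13 passed the stricter limit and the median SD was 0.155.

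Growth and breakdown genes were of moderate level, 15 of 16 above background on all 3 arrays, 5 over the stricter limit and 1 among the first 1000, with a median of 8.60. Mstn, myostatin, the secreted brake on muscle growth, read 12.23, 11.68 and 11.95. The ubiquitin ligases of atrophy Fbxo32 and Trim63 read 10.96, 11.71 and 11.40 and 10.87, 10.94 and 10.41. At the neuromuscular junction 14 of 16 genes were above background on all 3 arrays, 3 passed the stricter limit and 0 were among the first 1000. Chrne, the adult subunit of the acetylcholine receptor, read 10.20, 10.43 and 10.66, whereas Chrng, the fetal subunit it replaces, was above background on no array (4.24, 3.82 and 3.84). Of the dystrophin complex and membrane repair all 14 genes were above background on all 3 arrays. Dag1, dystroglycan, read 14.84, 14.71 and 14.57 and Dmd, dystrophin itself, 8.80, 8.70 and 8.14.

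Of 18 clock genes 17 were above background on all 3 arrays and 6 passed the stricter limit. Dbp, an output of the clock, read 14.52, 14.90 and 14.84, and Nr1d1, a repressor within it, 13.75, 13.33 and 14.12. Arntl, the activator, read 9.09, 9.36 and 8.53, and Per2 6.61, 7.04 and 6.58. The list's median SD, 0.292, was close to that over all probe sets, and Per3, at 9.30, 9.17 and 7.85, was its most variable gene. Housekeeping machines were bright, with 71 of 76 cytosolic ribosome genes, 74 of 76 of the mitochondrial ribosome and 37 of 39 of the proteasome above background on all 3 arrays. Their medians were 13.73, 11.15 and 13.36, and 61, 47 and 28 genes passed the stricter limit.

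Cells other than fibres were visible in part. In whole muscle, fewer cells of a type and less RNA per cell cannot be told apart. Of the vessel genes 16 of 17 were above background on all 3 arrays, with a highest mean of 12.60 (Rgs5, of pericytes), and 5 of 17 passed the stricter limit. Of the fibroblast and matrix genes 16 of 20 were above background and 5 passed the stricter limit, led by Dcn, decorin, at 16.15, 15.73 and 16.17 and Sparc at 16.32, 15.82 and 15.90. Lymphocyte genes were dark except Cd4 at 7.19, 7.24 and 7.04, which did not pass the stricter limit. Of 16 myeloid genes 5 were above background on all 3 arrays, against 41.3% of all probe sets, and 1 passed the stricter limit, the brightest being Mrc1, a receptor of resident macrophages, at 11.91, 11.43 and 11.15. Of 10 satellite cell genes 5 were above background on all 3 arrays, against 41.3% of all probe sets. Itga7, a laminin receptor also borne by fibres, led them at 13.04, 12.23 and 12.56. Chodl, Spry1, Notch3 and Heyl were dim, as with Spry1 at a mean of 6.89 and Notch3 at 6.52. Itga7 alone passed the stricter limit. The defining markers Pax7, Myf5 and Calcr were above background on no array. Of 9 Schwann cell and nerve genes 1 was, Pmp22. Of 11 fat cell genes 4 were, against 41.3% of all probe sets. Those 4 (Fabp4, Car3, Pnpla2 and Lipe) are also known from vessels or muscle fibres. The defining fat cell markers Plin1, Cidec and Lep were above background on no array. The red cell genes Alas2 and Slc4a1 were above background on all 3 arrays but not over the stricter limit, at 8.76, 8.33 and 8.14 and at 7.66, 6.80 and 6.30. The Y-linked genes Uty, Kdm5d and Eif2s3y were above background on none of the 3 control arrays.

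The 3 arrays were close in level, with differences that grew toward the dim end. Over the 9180 probe sets above background, Pearson's r between arrays was 0.981 for replicates 1 and 2, 0.976 for 1 and 3 and 0.969 for 2 and 3, as a description across genes that share an array. The median SD was 0.305, with quartiles of 0.185 and 0.472. It fell from 0.345 for probe sets with means of 5 to 8 to 0.151 for those of 18 to 20. The values of 1766 probe sets (19.2%) spanned 1 log2 or more, those of 111 spanned 2 or more, and those of 3806 (41.5%) less than 0.5.

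**Figure D3:**
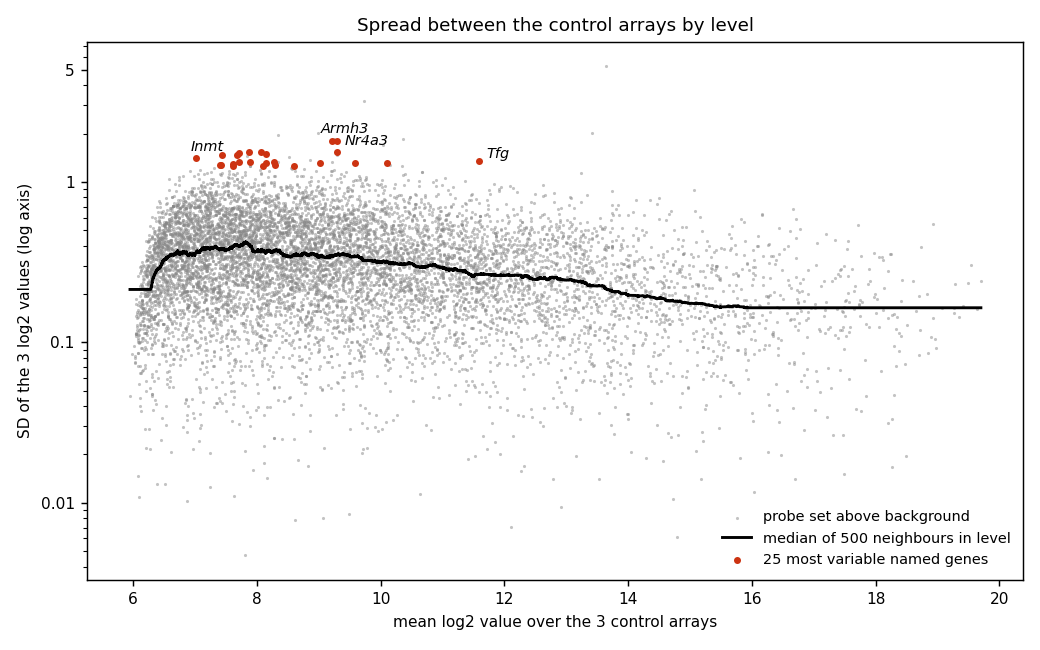
SD of the 3 control values (vertical, log axis) against their mean log2 value (horizontal) for each of the 9180 probe sets above background on all 3 arrays, with the median over 500 neighbours in level as a black line and the 25 most variable named genes in red. The line falls with level, and the 25 genes lie at means of 7.02 to 11.59.

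Replicate 3 stood apart from the other control arrays more often than they did from it. It was at least 1 log2 below both others, with those within 0.5 of each other, in 192 probe sets and above both in 112. The same counts were 61 and 102 for replicate 2 and 27 and 41 for replicate 1. Without replicate 3, the probe sets with a difference of 1 log2 or more numbered 544 in place of 1766, though a pair of arrays spans less than 3 do by construction. Without replicate 2 there were 832, and without replicate 1 there were 1177. Deviations from the 3-array mean moved with gene length on all 3 arrays. In the genes with the shortest span on the genome (2068 genes, median span 5261 bases) the medians were -0.007, -0.039 and 0.040 on replicates 1, 2 and 3. In the 2068 with the longest (103155 bases) they were 0.033, 0.034 and -0.067. The deviations of a gene balance each other by construction, so the trend cannot be assigned to 1 array. The part of gene length in these differences was not tested.

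The 25 named genes of highest SD were chosen for that spread, so their values are a description. Replicate 3 was lowest in 22 of the 25 (38.1% of all probe sets above background) and highest in 2 (34.4%), and replicate 2 was highest in 17 (35.6%). Replicate 1 was highest in the other 6 (29.9%). None of the 25 was among the first 1000. Armh3, a gene with armadillo-like helices, had the highest SD, 1.81, at 9.82, 10.64 and 7.17. Nr4a3, an immediate early nuclear receptor induced by exercise, followed at 7.85, 11.30 and 8.76, with replicate 2 alone high. Ccnl1, a cyclin of RNA splicing, also had replicate 2 alone high, at 8.71, 11.04 and 8.14.

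The 25 are taken below in groups for reading only, and the share of any function among them was not tested. Ccne2, cyclin E2, read 8.40, 9.40 and 6.38, and Map3k1, a kinase above the JNK pathway, 9.19, 8.22 and 6.20. Nlk, a kinase that acts on Wnt signalling, had replicate 1 alone low, at 6.74. Replicate 1 was the lowest array in 3 of the 25 (27.9% of all probe sets above background). Nlk deviated from its 3-array mean of 8.28 by -1.54, 0.73 and 0.81. Cspg4, known as NG2 and borne by pericytes, read 8.69, 8.49 and 5.96. Rarg, a retinoic acid receptor, read 7.26, 8.74 and 6.22. Replicate 3 was the lowest in each of these but Nlk.

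Others belonged to metabolism and transport. Lipe, hormone-sensitive lipase, read 8.33, 9.22 and 6.73, and Aldh3a2, which oxidises fatty aldehydes, 7.28, 8.97 and 6.04. Pepd, a dipeptidase of collagen breakdown, read 6.47, 8.62 and 5.97. Aspscr1, known as TUG, holds the insulin-regulated glucose carrier inside the cell and read 8.05, 8.59 and 6.18. The nucleoside carrier Slc28a2 read 9.81, 10.77 and 8.18, and Slc16a9, of the monocarboxylate carrier family, 8.74, 7.28 and 6.21. Inmt, an indolethylamine methyltransferase, was the only one of the 25 with replicate 3 alone high, at 6.72, 6.95 and 9.39. Kera, keratocan, a proteoglycan also found in tendon, read 9.11, 9.52 and 7.16. Of 10 tendon genes 4 (40.0%) were above background on all 3 arrays, near the 41.3% of all probe sets, and 0 passed the stricter limit. Tnmd, a defining marker of tendon, read 7.20, 7.59 and 7.27, Thbs4 6.42, 6.53 and 6.13 and Prg4, lubricin, 6.36, 6.71 and 7.18, so replicate 3 was lowest in Thbs4 as in Kera and highest in Prg4. Fmod and Chad, not above background on all 3 arrays, had the order of Kera, at 6.36, 6.57 and 5.88 and at 4.93, 6.42 and 3.84. The part of tendon in the spread of Kera was not tested.

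The remaining members ran the same way. Tfg, of the early secretory pathway, was the brightest of the 25 at 12.11, 12.59 and 10.06. Nkapd1 read 8.37, 9.51 and 6.55, and Ints6, of the Integrator complex, 7.96, 8.70 and 6.19. Fam126a, part of a lipid kinase complex at the plasma membrane, read 8.10, 9.12 and 6.46, and Mtss1, a membrane-bending actin regulator, 8.66, 8.27 and 6.18. The zinc finger genes Zfp280d and Zfp931 read 10.01, 9.52 and 7.52 and 10.59, 11.10 and 8.61, and the secreted factor Tafa1 8.76, 9.25 and 6.84. Replicate 3 was the lowest in all of these. The other one of the 25 is a predicted gene. The 25th gene had an SD of 1.26 and the 26th one of 1.25, so the edge of the group is arbitrary.

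**Figure D4:**
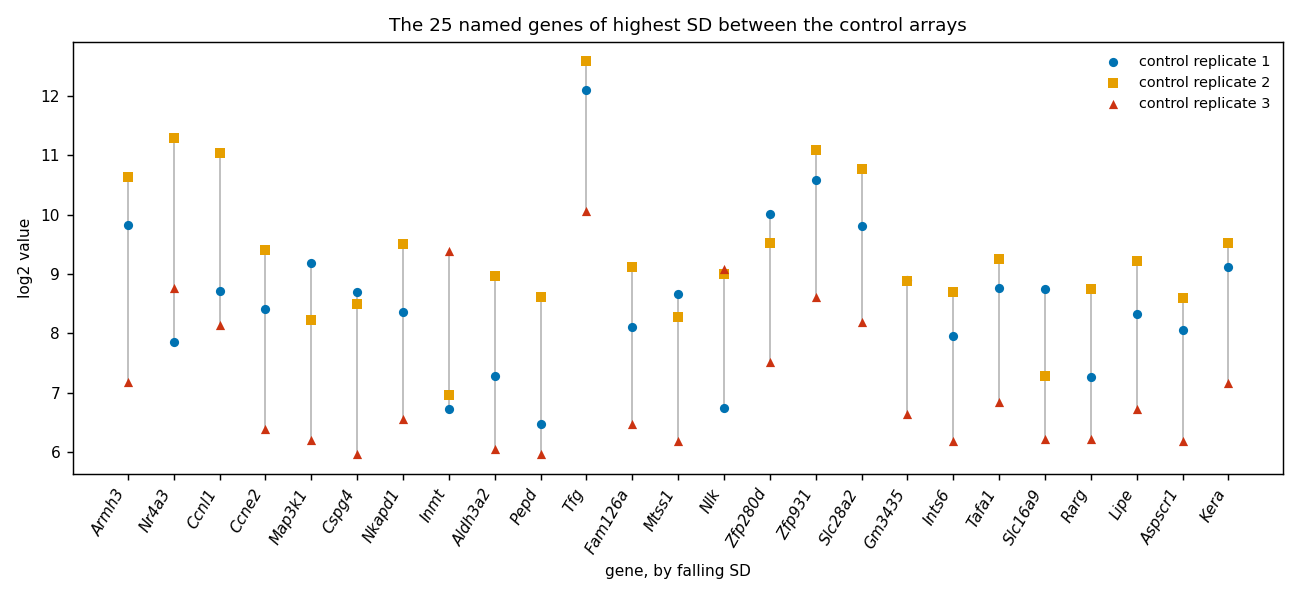
Log2 values on the 3 control arrays (vertical) of the 25 named genes of highest SD (horizontal, by falling SD), with 1 point per array and a grey line over the range. Replicate 3 is the lowest point in 22 genes; Inmt and Nlk are the genes in which it is the highest.

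Arrays that took no part in this choice gave a partial view of whether the same genes vary elsewhere. The SD within genotype over the 6 knockout arrays, each set against its own genotype's mean, had a median of 0.271 over all 9180 probe sets and of 0.419 over the 25. It exceeded the former in 19 of the 25 and exceeded the 95th percentile over all, 0.602, in 8. Nr4a3 had the highest SD of the 25 there, 1.94. Ccnl1, Nkapd1, Tfg and Rarg, by contrast, had SDs of 0.192, 0.160, 0.187 and 0.158 there. The 25 lie at means of 7.02 to 11.59, and the medians over the 25 and over all were not matched for level. Over all 9180 probe sets the rank correlation of the control SD with the SD on the knockout arrays was 0.233. Between control replicates 1 and 2 alone, 9 of the 25 differed by 1 log2 or more, against 5.70% of all probe sets, and the median difference was 0.894 against 0.310. These arrays took part in the choice of the 25, so part of that excess is built in.

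Unnamed probe sets held 16 of the first 41 places by SD. The highest of all was TC0900001109.mm.2, with 16.57, 16.79 and 7.56, an SD of 5.27. Replicate 3 alone was low, and the SD within genotype on the knockout arrays was 0.356. TC1700001227.mm.2 had replicate 2 as its low array, at 12.48, 6.21 and 10.51, and its SD within genotype on the knockout arrays was 1.75.

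The 10 named genes of lowest SD had SDs of 0.0047 to 0.0110. Mfn2, mitofusin, which fuses outer mitochondrial membranes, read 12.92, 12.92 and 12.90, and Mief1, an adaptor of mitochondrial fission, 9.47, 9.48 and 9.49. Rpl9, of the large ribosomal subunit, read 14.73, 14.71 and 14.72. The others were Il17b, Cst6, Rftn1, Nelfb, Tmem94, Ube2j1 and Dagla. Their SD within genotype on the knockout arrays had a median of 0.230, and in 4 of the 10 it exceeded the median over all probe sets.

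By list, the highest median SDs were in small lists, as with 0.530 for the 5 satellite cell genes above background and 0.504 for the 2 red cell genes. Of lists with 12 or more genes above background, vessel, fibroblast and matrix, and immediate early genes had the highest, at 0.461, 0.445 and 0.403. Tendon and myeloid genes had 0.311 and 0.386. Over all probe sets with means of 5 to 8 and 8 to 10 the median SD was 0.3450 and 0.3455. Fast fibre genes, at 0.175, and the respiratory chain, at 0.148, are brighter and lie where the spread of all probe sets is low. Vessel genes above background deviated on average by 0.35 on replicate 2 and -0.36 on replicate 3. Replicate 2 was highest in 10 of the 16 (35.6% of all probe sets above background) and replicate 3 lowest in 12 (38.1%). Endothelial and mural markers differed in the highest array. Replicate 2 was highest in 4 of 5 endothelial markers, with mean deviations of -0.03, 0.37 and -0.34. Replicate 1 was highest in 3 of 4 mural markers, with 0.26, 0.20 and -0.45. The genes named next are endothelial. Kdr, the main receptor for VEGF on endothelium, read 12.42, 12.89 and 11.52, Cdh5, of endothelial junctions, 11.06, 11.78 and 10.73, and Pecam1 9.48, 10.22 and 9.20. Tek, the angiopoietin receptor, had replicate 2 alone high at 7.08, 8.92 and 6.95. Emcn and Vwf did not follow, at 7.06, 6.94 and 7.12 and at 7.35, 7.65 and 7.69. Vegfa, the growth factor itself and made by fibres among other cells, read 14.25, 15.28 and 13.88, the same order as Kdr.

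Fibroblast and matrix genes took another order. They deviated by 0.30 on replicate 1 and -0.34 on replicate 2, and replicate 2 was lowest in 11 of 16 (34.0% of all probe sets). Dpt, dermatopontin, read 12.45, 11.10 and 12.84, Gsn, gelsolin, 10.50, 9.28 and 10.33, and Pi16, of a fibroblast subset around vessels, 7.68, 6.23 and 7.79. The collagen genes were mixed, with Col1a1 at 9.54, 8.80 and 8.30 and Col1a2 at 7.90, 7.86 and 8.34. Of the 5 myeloid genes above background, replicate 2 was lowest in 2 and replicate 3 in 3. Lyz2 read 9.43, 7.90 and 9.21, and Mrc1 11.91, 11.43 and 11.15. The neutrophil genes S100a8 and S100a9, which were above background on only some arrays, read 5.63, 4.01 and 7.94 and 6.78, 4.98 and 8.55. Adipoq, the fat cell hormone, passed the limit on replicate 3 alone, at 5.33, 4.84 and 6.75.

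Of 25 immediate early genes 12 (48.0%) were above background on all 3 arrays, near the 41.3% of all probe sets, and 3 passed the stricter limit. Fos, Fosb and Ier2, which respond within minutes to contraction or injury, were above background on none. Dusp1, a phosphatase of stress kinases, was the brightest at 16.24, 16.76 and 15.52, and Klf6 read 9.50, 9.98 and 8.74. Egr1 was outside the 25 because it was not above background on replicate 3, where it read 4.26 against 7.68 and 7.51. Nr4a1, a relative of Nr4a3, read 11.11, 11.19 and 10.46, so replicate 2 did not stand out there. On average these 12 genes deviated by 0.28 on replicate 2 and -0.27 on replicate 3. The former rested on Nr4a3: without it, the other 11 deviated by 0.13, 0.12 and -0.25, so on average replicate 3 was low and the other arrays were alike. Single genes differed. Replicate 3 was the lowest in 6 of the 12 (38.1% of all probe sets above background) and not in the others, as with Junb at 7.15, 6.39 and 6.51.

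Of 15 genes of lipid and sterol synthesis 12 were above background on all 3 arrays and 3 passed the stricter limit. They ran the opposite way, with replicate 3 highest in 10 of 12 (34.4% of all). The mean deviations were -0.16, -0.10 and 0.26, or -0.14, -0.06 and 0.20 without Srebf2. Srebf2, the master factor of sterol synthesis, read 8.37, 8.19 and 9.64. Scd1, which makes unsaturated fatty acids, read 7.06, 7.09 and 8.10, and Acaca, the first step of fatty acid synthesis, 8.21, 8.49 and 9.16. Replicate 3 was also highest in 46 of 74 mitochondrial ribosome genes (34.4% of all), with a mean deviation of 0.15. Fatty acid oxidation genes were lowest on replicate 2 in 15 of 23 (34.0% of all), by a mean of -0.18, as with Slc27a1, a fatty acid carrier, at 13.29, 12.23 and 13.60. Of 31 heat shock and stress genes 25 were above background on all 3 arrays and 15 passed the stricter limit. Of the 25, 7 spanned 1 log2 or more, against 19.2% of all. Fkbp5, a glucocorticoid target, read 7.80, 6.12 and 6.12, while Tsc22d3, another, read 11.62, 11.74 and 12.05 and did not follow it.

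Within the fibre genes the deviations were small. Replicate 3 was lowest in 16 of 18 fast fibre genes (38.1% of all), by a mean of -0.17. Quantile normalization reduced that deviation to -0.09, and centring of each array on its median enlarged it to -0.21. It was not particular to fast fibre genes. All 54 probe sets with means of 18 to 20, this list's among them, deviated by 0.02, 0.11 and -0.13. Those with means of 16 to 18 deviated by 0.01, 0.01 and -0.03. The part of level was not tested. The slow and type IIa list had larger and mixed deviations, with Ankrd2 and Csrp3, stretch-responsive proteins of muscle, at 16.05, 14.28 and 14.88 and at 14.98, 13.86 and 13.52. Myl2 was highest on replicate 3, while Myh7 and Tnnt1 were lowest there. The highest array thus differed between these slow genes. Centring of each array on its median, or quantile normalization of the 3, kept the sign of the leading deviations of vessel, fibroblast, immediate early, lipid synthesis and fast fibre genes. Under one or the other the deviations of replicate 3 in the respiratory complexes I, III and V kept their sign and those of complex IV, the clock, the junction, the stress genes and the proteasome changed theirs, all at or under 0.10 in size.

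**Figure D5:**
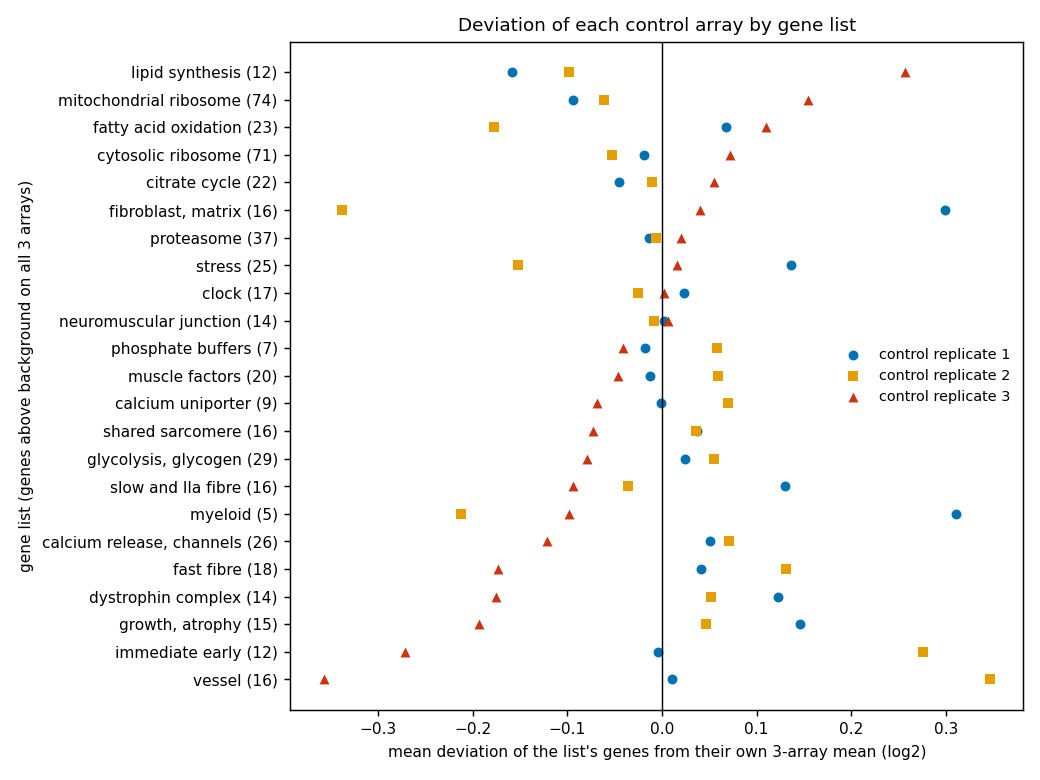
Mean deviation of each list's genes above background from their own 3-array mean (horizontal, log2), with 1 point per control array and the number of genes in brackets (vertical). Replicate 3 lies at -0.36 for vessel genes and at 0.26 for lipid synthesis, and replicate 2 at -0.34 for fibroblast and matrix genes.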

How the data were processed

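Expression was measured on 9 Clariom S mouse arrays, of which the 3 control arrays are described. The authors deposited a single value for each probe set on each array, read here as log2. The submitters' processing notes name Affymetrix Expression Console. Its version, summarisation, normalization and log base are not given in the sources used here, so how normalization shaped the spread is unknown.

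Each array held 28846 values. The 6640 control features were left out, except that 23 background sets fixed each array's limit. Platform annotation gave 19572 of the 22206 probe sets 1 symbol, 0 several and 2634 none. All 19572 were matched to RefSeq symbols of GRCm38.p6. Where a gene had several probe sets (55 genes), the brightest was read. The array design's build was not named, so only promoter windows carry coordinates. Mcub was not analysed here.

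Means, SDs, ranks and counts were computed with Python 3.11.15, pandas 2.3.3 and numpy 2.4.6. No test between genotypes was made. The spread calculation was tested on simulated data. The number of arrays limits the precision.

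The 3 arrays, the lists and the members were chosen with earlier results of these data known. Genes were named if among the 30 highest means, the 25 highest or 10 lowest SDs (above background on all 3 arrays), or on a list. Genes of predicted symbol were counted only. Alternatives were other limits, filters, normalizations and summaries, and leaving out each array.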

Additional observations from a re-analysis of the deposited data

How the results depend on the processing

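The first 100 probe sets were stable, with 95 to 100 shared under quantile normalization, centring, the median or lowest of 3, and leaving out any 1 array. The count above background ran from 7324 to 10444 in place of 9180 over the planned limits, array rules and omissions, but was 3239 with the limit at the 95th percentile of the features whose names hold "neg", an alternative chosen after seeing the data. So was leaving out each list's most variable gene, which moved the immediate early deviation on replicate 2 from 0.28 to 0.12. The number of probe sets spanning 1 log2 or more, 1766 as reported, was 544 to 1177 with 1 array left out, 3874 with no filter on dim probe sets and 2691 with those above background on any array. Fewer arrays give a smaller span, and a wider filter admits more probe sets, by construction. The median SD stayed between 0.218 and 0.338. Of the 25 most variable named genes 4 to 19 were shared when 1 array was left out (4 without replicate 3, 10 without replicate 2, 19 without replicate 1), and 12 when the SD was divided by the median SD at the same level, which ranks brighter genes higher by construction. Quantile normalization and centring shared 23 and 25. The levels of 55 named genes moved by less than 1 SD under the 2 normalizations and 3 omissions, as did 42 to 45 of 45 list levels. Leaving out 1 of 3 arrays cannot move a gene's mean by 1 SD of the 3 values. For the 55 genes the omissions are therefore no test. No paired analysis was possible because no comparison between genotypes was made. Signal close to background limits what can be said of dim genes.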
